A study of Drosophila melanogaster with 3 samples.

Results

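Core regions at one-way start sites are the places where chromatin of Drosophila melanogaster embryos gave recurrent tgo-GFP peaks close to a protein-coding start site and not between a pair of starts that face away from each other. They were chosen by peak position: summits of the 3 per-replicate thresholded peak lists were joined when no more than 150 bp apart, a joined region in 2 or more lists was a core region, and its position was the median summit. A core region was kept when it lay from 200 bp upstream to 200 bp downstream of the nearest protein-coding start, and dropped when it lay between 2 starts on opposite strands that faced away from each other at most 1000 bp apart. This left 467 of 3463 core regions (13.5%, 95% Wilson interval 12.4 to 14.7%), at 461 genes. The data are anti-GFP chromatin immunoprecipitation sequencing of whole embryos of the strain tgo-GFP, which express a tgo-eGFP fusion protein from an insertion for the gene tango (tgo), collected 0 to 24 h after laying and sonicated to fragments of 200 to 800 bp. The 3 biological replicates form 1 group, so no genotype, age or treatment can be compared. The labels name no tissue or cell type, and whole embryos mix all of them.

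Tango, the counterpart of vertebrate ARNT, belongs to the bHLH-PAS transcription factors. Its partners include Spineless, Similar, Trachealess and Single-minded, and with any of these it can form a pair that binds DNA. A promoter is one-way when a single gene starts there, whereas facing-away promoters are shared by a pair of genes read in opposite directions, an arrangement common in the compact fly genome. Fly promoters fall into broad kinds by their short sequence elements: the TATA box and the initiator mark many regulated genes, while the DNA replication-related element (DRE), bound by DREF and BEAF-32, and the elements called Motif 1, bound by M1BP, and Motif 7 mark genes that most cells use.

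The strongest regions outside the arm whose sequence is not shown had summits in DNA made largely of A and T. Their 100 bp summit windows, centred on the summit and read 5′ to 3′ on the gene's strand from the dm6 sequence, are shown because they are what the peaks lie on. Capitals mark any of 13 short motifs (those listed with their shares further on, GATAA left out), and a window all in lower case holds none of them.
CG14100 (chr3L:19590562-19590661, minus strand): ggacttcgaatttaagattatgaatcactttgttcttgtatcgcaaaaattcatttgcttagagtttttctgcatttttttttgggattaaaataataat
CG18549 (chr3R:12449115-12449214, plus strand): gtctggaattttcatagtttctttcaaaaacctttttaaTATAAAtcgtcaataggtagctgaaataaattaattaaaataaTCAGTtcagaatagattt
CG9147 (chr2L:6066051-6066150, plus strand): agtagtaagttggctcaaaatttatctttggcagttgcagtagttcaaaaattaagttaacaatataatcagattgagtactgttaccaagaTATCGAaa
RluA-1 (chr2L:10474474-10474573, minus strand): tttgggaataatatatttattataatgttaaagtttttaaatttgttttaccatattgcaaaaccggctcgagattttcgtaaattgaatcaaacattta
The GC content of these windows was 26, 23, 30 and 23% in the order shown, and none of them held ACGTG or GCGTG, the cores known for Tango pairs. CG18549 had the letters of the TATA box and of the initiator far upstream of its start, and CG9147 had the core of the DRE.

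Signal is given as the percentile of the authors' signal value within each thresholded list, since its unit is not stated. The region at CG14100, with its summit 88 bp upstream of the start, stood at 99.93, 99.95 and 99.95 in replicates 1, 2 and 3. CG18549, at -131 bp, stood at 99.5, 99.8 and 99.4. RluA-1, which encodes a pseudouridine synthase, stood at 98.6, 99.4 and 98.5 with its summit at -175 bp. These regions were chosen for a high mean over the same 3 lists, so values near the top of every list are a description. Among the 12 strongest regions in all 3 lists, mean percentiles ran down to 98.6 at MFS18, a member of the major facilitator transporter family, whose summit lay at -82 bp. Btk, which encodes a Tec-family tyrosine kinase, stood at 98.6 ± 0.745 (SD, n = 3) with its summit at -162 bp.

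Of the other leading regions, 6 lay on chromosome arm 2R. They were at Fkbp14, which encodes an endoplasmic reticulum prolyl isomerase (21497159 to 21497498, summit at -116 bp, 99.6 ± 0.151), GstE13, a glutathione S-transferase gene (9122037 to 9122354, at 72 bp), and eIF6, whose product acts in ribosome biogenesis (23850251 to 23850560, at -110 bp). The others were at CG8320 (at 79 bp), px, known for wing vein patterning (at -198 bp), and Tina-1 (at -164 bp). All 6 had a mean percentile above that of RluA-1. Position therefore differed among the strongest regions: 3 of the 12, at CG9147, GstE13 and CG8320, had their summit downstream of the start. CG9147 and CG8320 also have a neighbour on the opposite strand that starts 133 and 32 bp upstream, so their summits lay beside a facing-away pair and not between its starts. In all, 20 of 467 regions, each at or downstream of the start, had such a nearest start, which is therefore not one-way itself.

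Most of the 467 regions were found in every list. In all 3 lists there were 340 (72.8%, 68.6 to 76.6%), against 1930 of 2996 other core regions (64.4%, 62.7 to 66.1%). Since presence in lists chose the regions, these shares are a description. The 127 regions in 2 lists were missing from replicate 1 in 35 cases, from replicate 2 in 11 and from replicate 3 in 81. The lists held 3617, 4759 and 3027 peaks, so the shortest list missed the most regions. Where a region was in all 3 lists, the median range of its 3 summits was 25.5 bp, against 29 bp for other core regions. Read depth is unknown, and all intervals cover counting error only.

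The rule was then applied to 2 lists at a time, and the list left out, which had no part in the choice, was searched for a summit within 150 bp. Regions at one-way starts were found again in 90.7, 96.9 and 80.5% of cases with replicates 1, 2 and 3 left out, against 87.8, 95.8 and 72.8% of other core regions. One-way start regions thus recurred more often in every replicate, by 3.94 ± 3.40 percentage points (SD, n = 3). The two-sided exact sign-flip test gave p = 0.25, the smallest value 3 replicates allow, so no such comparison can pass 0.05. The order of the replicates was the same in both classes, with the longest list recovering the most. With a window of 100 bp to either side of the start the difference was 0.087 points, and with only peaks above their list's median signal it was 1.56 points.

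Set against single classes, the difference depended on the kind of place. Regions in introns were found again in 83.2 ± 13.6% of cases and intergenic ones in 81.6 ± 12.7%, below the 89.4 ± 8.27% of one-way start regions in 3 of 3 replicates (difference 6.14 ± 5.41 and 7.83 ± 4.98 points, exact p = 0.25 for both). Against regions between facing-away starts, at 91.0 ± 7.21%, the difference was -1.62 ± 1.70 points and one-way start regions were higher in 1 of 3 replicates (exact p = 0.5). Against regions farther upstream in promoters, up to 1000 bp from the start, it was 2.25 ± 3.36 points (exact p = 0.5). Neither of these last differences exceeded its spread between replicates. In the longer ranked lists, which keep candidates below the threshold, the median percentile in the replicate left out was 96.7 ± 1.62 for one-way start regions and 96.4 ± 1.71 for other core regions (difference 0.289 ± 0.126, higher in 3 of 3, exact p = 0.25). With a window of 100 bp to either side of the start this last difference turned to -0.66.

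**Figure D1:**
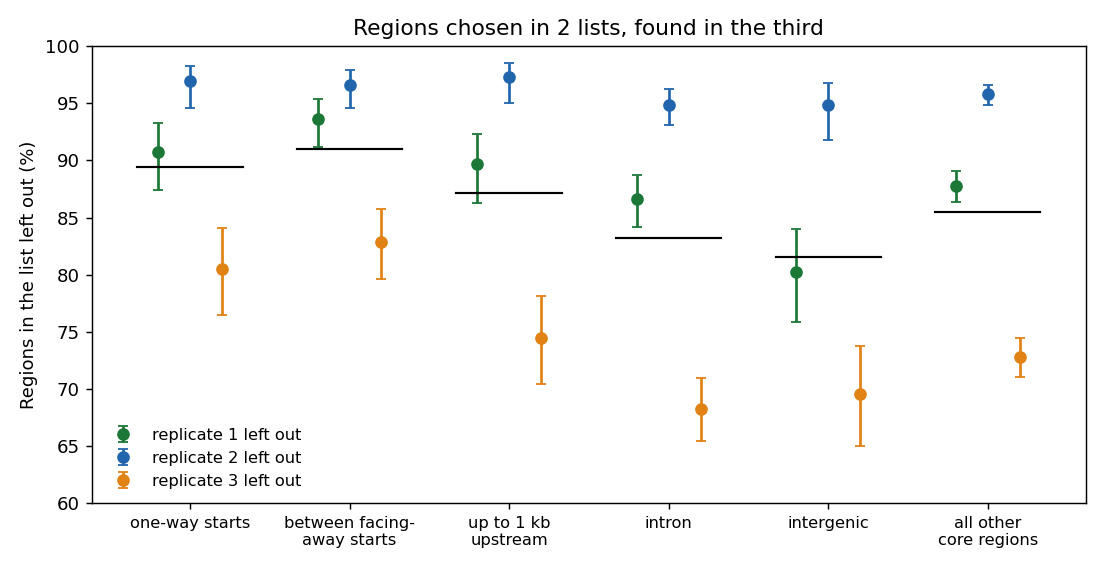
Share of regions chosen in 2 lists that had a summit within 150 bp in the replicate left out, by class of region; points are replicates with 95% Wilson intervals, lines are means over 3 replicates, and the axis starts at 60%. One-way start regions, at 80.5 to 96.9%, lie above intron and intergenic regions in each replicate, and leaving out replicate 3 gives the lowest share in every class.

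Regions missing from 1 list were seldom without a trace there. Of the 35 regions missing from replicate 1, 29 (82.9%) had a candidate within 150 bp in its ranked list, as did 8 of 11 (72.7%) in replicate 2 and 73 of 81 (90.1%) in replicate 3. Other core regions missing from a list had one in 85.6% of 263, 95.2% of 84 and 90.3% of 719 cases, so in replicates 1 and 3 the classes differed by less than their counting error, and in replicate 2 only 11 one-way start regions were missing. One-way starts with no core region had a candidate within 150 bp of the place 112 bp upstream of the start in 9.71, 24.1 and 10.3% of 8462 cases. Most missing regions thus had a candidate in the ranked list, and the median signal percentile of these candidates there was 87.8, 93.6 and 88.2. Their scores were not set against the threshold. The authors' conservative list of the whole series held 449 of the 467 (96.1%), against 96.4% of other core regions.

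The summits gathered upstream of the start and away from it. Of 467 regions, 397 (85.0%, 81.5 to 88.0%) lay upstream, and the median position was -112 bp with quartiles at -157 and -56 bp. The bin from -200 to -150 bp held 137 regions, that from -50 to 0 bp held 42 and that from 0 to 50 bp held 25. The replicates' own lists, taken before joining, had medians of -113, -91.5 and -110 bp and 84.4, 75.2 and 85.0% upstream, so replicate 2 had more summits at and after the start than the others. Regions at starts on the plus and the minus strand did not differ much, with medians of -108.5 bp over 214 and -114 bp over 253. Since position chose the regions, these values are a description.

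**Figure D2:**
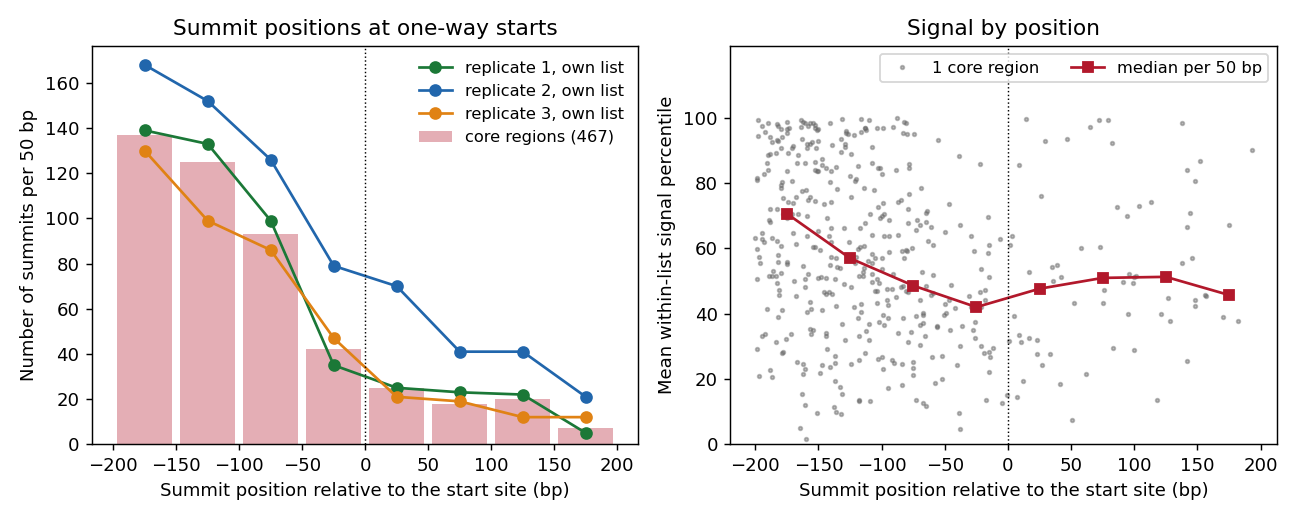
Left, number of summits per 50 bp relative to the start site for core regions (bars) and for each replicate's own list (lines); right, mean within-list signal percentile of each of the 467 regions (points) and the median per 50 bp (squares). Counts fall toward the start, from 137 regions between -200 and -150 bp to 42 between -50 and 0 bp, and the median percentile is highest, at 70.6, farthest upstream.

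Signal followed position. The median percentile was 70.6 in the bin from -200 to -150 bp, 57.0 in the next, 48.6 from -100 to -50 bp and 42.0 from -50 to 0 bp. Downstream of the start it lay between 45.7 and 51.3. At the edges of the window, the regions just inside were at CG14853 (-200 bp), CG10555 and CG2747 (-199 bp) upstream and at Cftr (193 bp), Ppa (182 bp) and Cerk (175 bp) downstream. Just outside were 14-3-3zeta, CG31075 and CG6231 (-201 bp), and Vti1b (204 bp), bsd (207 bp) and Agpat4 (208 bp). The window thus cuts through a run of regions upstream and through a sparse stretch downstream.

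By annotation, 263 summits lay between genes, 110 in introns, 77 in 5′ UTRs, 16 in 3′ UTRs and 1 in a coding exon. The introns and 3′ UTRs belong in part to a neighbouring or enclosing gene, since a start can lie inside or just after another gene. Of the 70 regions at or downstream of the start, 56 lay in 5′ UTRs. The nearest upstream gene was on the same strand for 59.7% of regions (median gap 477 bp), against 53.9% of other one-way starts (563 bp). A noncoding RNA start faced away within 1000 bp at 23 regions (4.93%) and at 3.95% of other one-way starts, so by all transcripts these 23 starts are not one-way. Starts inside another gene were less frequent, at 9.21% (6.91 to 12.2%) against 20.5% (19.6 to 21.3%). The median gene length was 4158 bp against 2046.5 bp, and 46.9% of the genes had a single start against 75.4%. A region may lie at any one-way start of a gene, whereas the other one-way starts are one per gene, so genes with more starts had more chances to enter and this comparison is a description. By arm, the regions numbered 97 on 2L, 91 on 2R, 92 on 3L, 103 on 3R, 83 on X, 1 on chromosome 4 and 0 on Y. The 5 large arms held 3.21 to 4.13 per Mb.

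Base composition at the summits was low in G and C. The 100 bp summit windows averaged 33.3% GC, against 39.0% in windows 112 bp upstream of the 8462 other one-way starts, which are the first one-way start of each gene with no core region within 1000 bp. Taken from each replicate's own list, it was 34.8 ± 1.56% (SD, n = 3), lower by 4.19 ± 1.56 points than those other starts in 3 of 3 replicates (two-sided exact sign-flip p = 0.25, the smallest possible). Flanks 500 bp to either side of the regions had 44.2%. Regions between facing-away starts had 29.6% and all other core regions 30.5%. The lists share most regions, so the SD over replicates understates the error. The own lists held 481, 698 and 426 summits that met the position rule, including summits found in 1 list only. Starts with only such a summit can be among the other one-way starts. The compared sets can therefore overlap in all GC and motif comparisons by replicate. The joined regions differed by -5.72 points, against -3.51 in 200 bp windows and -3.37 with starts no more than 100 bp away.

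Around the start itself the order turned. In the 150 bp from -100 to +50 bp, starts with a core region had 44.3% GC and other one-way starts 42.4%, a difference of 2.10 ± 0.582 points in the replicates' own lists (exact p = 0.25). This difference depended on the window, and from -200 to +200 bp it was -0.98 points. The profile had its lowest value at starts with a core region between -180 and -160 bp, at 29.97%, where other one-way starts had 37.5%. It had 48.1% between -20 and 0 bp, where other one-way starts had 44.5%.

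**Figure D3:**
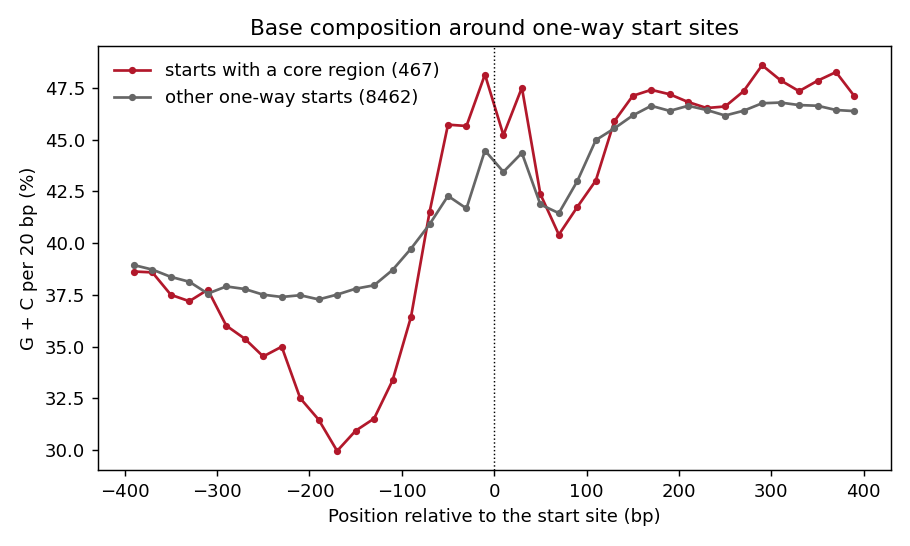
Mean G + C per 20 bp from -400 to 400 bp of the start site, for the 467 starts with a core region and 8462 other one-way starts. The first curve dips to 29.97% upstream, against 37.5% for the second at the same place, and lies above it close to the start.

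GC content and position moved with signal. Ranked by mean percentile, the 117 strongest regions (percentile 80.4 or above) had 28.7% GC at the summit and a median position of -147 bp, and 99.1% of them were in all 3 lists. The 117 weakest (percentile 38.7 or below) had 38.8% GC and a median position of -90 bp, and 36.8% were in all 3 lists. Which of position, composition and signal goes with which was not tested.

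Most of the 14 motifs searched were found at more of these starts than of other one-way starts, with the TATA box, the initiator and GATAA as exceptions. The windows from -100 to +50 bp of the start below show an example of each element in capitals, from the strongest region that holds it outside the arm whose sequence is not shown; the examples were picked after values were seen. They are on the gene's strand of dm6. CG1142 has Motif 1, searched as GGTCACACT on both strands. Oatp30B, an organic anion transporter gene, has Motif 7, searched as CATCNCTA on both strands. CG1635 has the palindrome CAGCTG in 2 places, and MFS18 has TATAAA, searched on the gene's strand only.
CG1142 (chr3R:7473732-7473881, minus strand): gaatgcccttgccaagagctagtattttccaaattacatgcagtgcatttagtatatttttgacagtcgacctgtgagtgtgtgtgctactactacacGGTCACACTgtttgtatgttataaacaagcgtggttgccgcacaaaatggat
Oatp30B (chr2L:9521110-9521259, plus strand): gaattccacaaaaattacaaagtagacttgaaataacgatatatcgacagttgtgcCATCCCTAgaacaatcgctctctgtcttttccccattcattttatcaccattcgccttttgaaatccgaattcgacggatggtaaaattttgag
CG1635 (chr3R:31588573-31588722, plus strand): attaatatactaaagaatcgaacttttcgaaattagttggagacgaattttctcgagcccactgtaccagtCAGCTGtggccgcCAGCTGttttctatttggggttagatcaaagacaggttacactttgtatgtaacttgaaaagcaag
MFS18 (chr2L:4448586-4448735, minus strand): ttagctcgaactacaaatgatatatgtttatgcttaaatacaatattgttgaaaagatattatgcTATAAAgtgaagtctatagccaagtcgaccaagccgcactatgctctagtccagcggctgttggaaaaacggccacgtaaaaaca
A match says only that the letters are present, and no match says only that they are not in the window.

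The 5-letter motif CACTG, searched on both strands, was found at 222 of 467 starts with a core region (47.5%, 43.0 to 52.1%) and at 27.6% (26.7 to 28.6%) of other one-way starts. In the replicates' own lists its share was 47.2, 42.1 and 47.7%, higher than at other one-way starts by 18.0 ± 3.07 points in 3 of 3 (exact p = 0.25). It was searched because it stood out at all core summits in earlier work on these lists, so it gives no independent support here. By 20 bp bins it was most frequent just after the start, at 10.7%, against 5.67% at other one-way starts, and 10.49% of starts with a core region had it between -80 and -60 bp, against 3.71%. The letters were read on the gene's strand at 30.6% and on the other strand at 25.3% of starts, against 14.5 and 15.3%.

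CAGCTG, an E-box palindrome read by bHLH proteins, was found at 82 of 467 starts with a core region (17.6%, 14.4 to 21.3%), against 9.41% of other one-way starts, with a difference of 8.25 ± 0.594 points (exact p = 0.25). Motif 1 was found at 28 starts (5.996%, 4.18 to 8.53%) against 2.80%, a difference of 3.06 ± 0.361 points. Motif 7 was found at 25 (5.35%, 3.65 to 7.78%) against 2.62%, a difference of 2.94 ± 0.767 points, and for joined regions of 2.73 points, against 1.58 without replicate 2 and 1.45 for regions in all 3 lists. Motif 1 was read on the gene's strand at 21 starts and on the other at 7, and Motif 7 at 22 and 5. Other one-way starts had the same lean, with Motif 1 at 199 and 38 and Motif 7 at 192 and 34. The full DRE, TATCGATA, was at 5.996% (4.18 to 8.53%) against 4.50%, a difference of 2.31 ± 1.02 points in the replicates' own lists. For joined regions it was 1.49 points, against 0.88 without replicate 2, 0.80 for regions in all 3 lists and -1.19 for peaks above their list's median signal. At least 1 of the 3 elements DRE, Motif 1 and Motif 7 was present at 73 starts (15.6%, 12.6 to 19.2%), against 8.78% (8.20 to 9.40%) of other one-way starts.

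The TATA box went the other way. TATAAA on the gene's strand was found from -100 to +50 bp at 40 of 467 starts with a core region (8.57%, 6.35 to 11.5%), against 19.7% (18.9 to 20.6%) of other one-way starts. The replicates' own lists gave 8.73, 9.17 and 8.92%, lower by 10.8 ± 0.219 points in 3 of 3 (exact p = 0.25). This difference belonged to the stretch close to the start: from -200 to +200 bp it was -3.81 points for joined regions, and between -200 and -180 bp 5.14% of starts with a core region had TATAAA, against 2.52%. At the place where the TATA box usually lies, here from -40 to -16 bp, it was at 13 starts (2.78%) against 9.75%. The initiator letters TCAGT were at 25.7% (21.9 to 29.8%) against 32.5% (31.5 to 33.5%). Within 5 bp of the start they were at 7.71% against 9.04%. GAGAG, read by the GAGA factor, was at 26.1% (22.3 to 30.3%) against 19.4% (18.5 to 20.2%), a difference of 6.77 points that turned to -4.91 with starts no more than 100 bp away. GATAA, known for GATA factors, was at 27.4% against 32.3%.

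**Figure D4:**
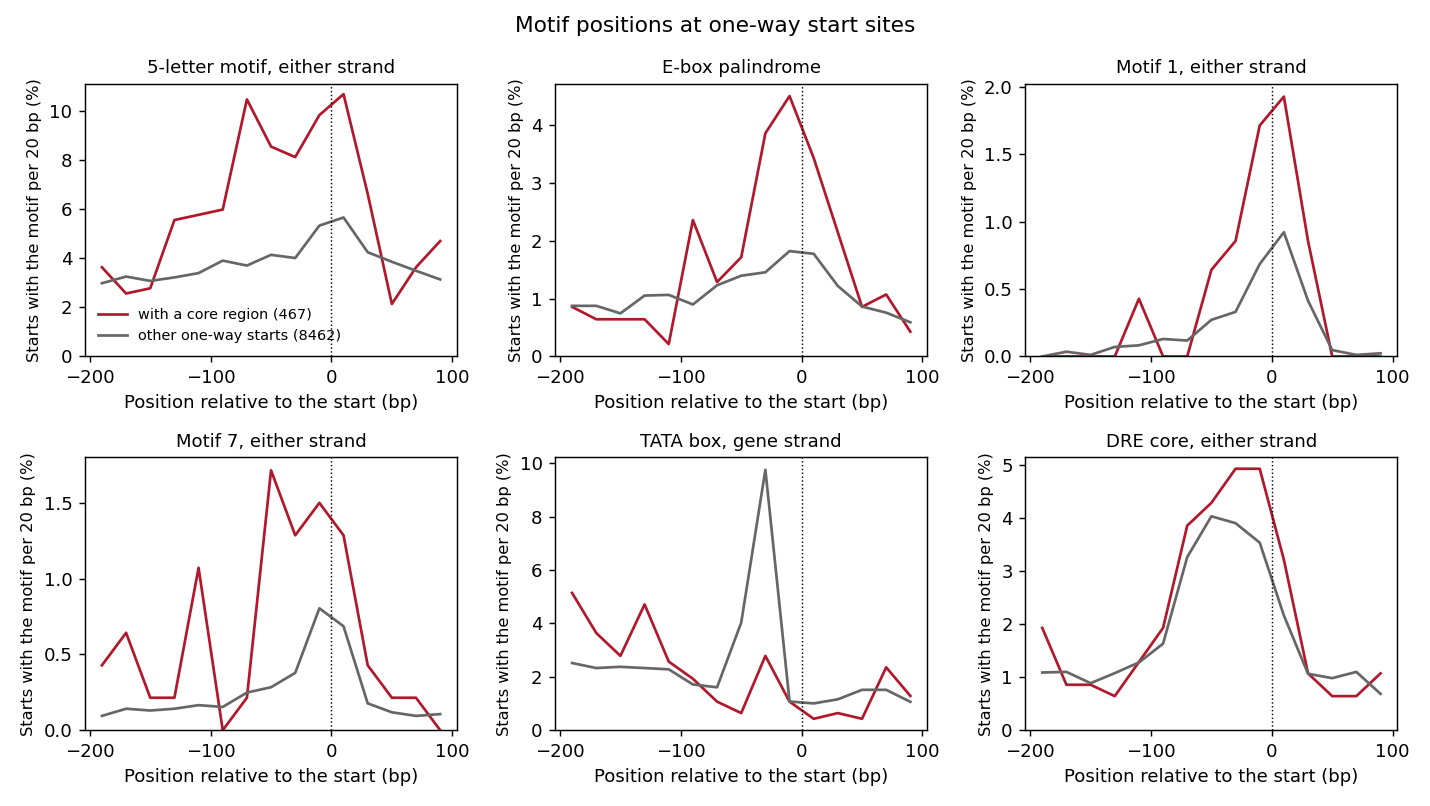
Share of start sites with a motif per 20 bp, from -200 to 100 bp of the start, for the 467 starts with a core region and 8462 other one-way starts; the first panel is CACTG, and the panels have scales of their own. The TATA box peaks at 9.75% at other one-way starts and reaches 2.78% there at starts with a core region, whereas CACTG, the E-box palindrome, Motif 1 and Motif 7 are higher at starts with a core region near position 0.

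At the summits most of these differences were small. The windows below are the strongest regions that hold Motif 7, the full DRE and Motif 1 within 50 bp of the summit, and they are shown because these elements seldom lay on the summit itself. Sptr encodes sepiapterin reductase, eEF1gamma a subunit of the translation elongation factor, and Ube4B a ubiquitin ligase; capitals mark the element.
Sptr (chrX:8464524-8464623, minus strand): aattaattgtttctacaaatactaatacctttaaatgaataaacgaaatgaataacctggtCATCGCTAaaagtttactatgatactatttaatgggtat
eEF1gamma (chr3R:29220083-29220182, plus strand): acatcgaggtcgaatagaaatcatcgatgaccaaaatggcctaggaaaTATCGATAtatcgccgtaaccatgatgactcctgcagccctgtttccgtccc
Ube4B (chr2L:13019137-13019236, minus strand): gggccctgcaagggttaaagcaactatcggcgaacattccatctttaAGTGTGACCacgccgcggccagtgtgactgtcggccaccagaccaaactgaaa
Motif 7 was in 16 of 467 summit windows (3.43%, 2.12 to 5.49%), against 0.745% (0.582 to 0.951%) of windows 112 bp upstream of other one-way starts and 0.428% of flanks. Those windows all had 1 offset, while the summits lay anywhere within 200 bp of the start, so position is not matched in the summit comparisons. At other one-way starts Motif 7 was at 0.165% between -120 and -100 bp and at 0.804% between -20 and 0 bp. The replicates' own lists had it in 2.91, 3.87 and 3.05%, more by 2.53 ± 0.517 points in 3 of 3 (exact p = 0.25). The joined regions differed by 2.68 points, against 1.54 without replicate 2 and 1.18 for peaks above their list's median signal. The full DRE was in 7 summit windows (1.499%, 0.728 to 3.06%) against 1.30%, and Motif 1 in 3 (0.642%, 0.219 to 1.87%) against 0.366%. These counts are too few to show a difference. TATCGA, the core inside TATCGATA, was in 7.92% (5.80 to 10.7%) against 6.25%.

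Of the 14 motifs, GAGAG was lowest at the summit relative to other one-way starts, in 26 of 467 windows (5.57%, 3.83 to 8.03%) against 15.6% (14.8 to 16.4%) of other one-way starts and 13.5% of flanks. By replicate the share was 6.65, 10.7 and 6.81%, fewer by 7.53 ± 2.32 points in 3 of 3 (exact p = 0.25). The summit windows were also lower in GC, and its part in the summit shares of this and the other motifs was not tested. TATAAA was in 13.7% of summit windows (10.9 to 17.1%) against 9.23%, a difference of 3.89 ± 0.571 points. That direction held in 100 bp windows, while in 200 bp windows it was -3.19 points and with starts no more than 100 bp away -11.9 points. In both of these settings the windows at other one-way starts took in the stretch from -40 to -20 bp, which the main windows did not reach. There 9.75% of other one-way starts had TATAAA. The part of this placement in the change of sign was not tested. CACTG was in 19.1% (15.8 to 22.9%) against 15.3%, a difference of 3.75 points that was 1.79 without replicate 3, and in 19.7% of flanks. GTATNTTT, part of the element called Motif 6, was in 6.85% (4.90 to 9.51%) against 4.53%. CAGCTG was in 4.50% of both.

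Regions between facing-away starts, the most similar class, shared much of this, and the difference between the classes was not tested. At the summit Motif 7 was in 3.43% of windows of one-way start regions and 2.23% of those between facing-away starts, and GAGAG in 5.57 and 4.30%. In the start windows, read at the nearest start, CACTG was at 47.5% of one-way start regions and 42.5% of regions between facing-away starts, CAGCTG at 17.6 and 17.7% and Motif 1 at 5.996 and 6.85%. Motif 7, at 5.35 and 12.9%, and the full DRE, at 5.996 and 11.3%, were lower at one-way start regions, as was the TATA box, at 8.57 and 12.7%.

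The cores known for Tango pairs were no more frequent in these 100 bp summit windows than at other one-way starts. ACGTG, the core for pairs with Similar, Trachealess or Single-minded, was in 28 of 467 summit windows (5.996%, 4.18 to 8.53%), against 7.16% (6.63 to 7.73%) of other one-way starts and 11.3% of flanks. By replicate it was in 5.82, 8.45 and 5.63%, a difference of -0.526 ± 1.58 points (exact p = 0.5). GCGTG, bound by Tango with Spineless, was in 8.14% (5.99 to 11.0%) against 9.12%, a difference of -0.369 ± 1.23 points (exact p = 0.75). Neither exceeded its spread between replicates. The summit windows were lower in GC, at 33.3% against 39.0% at other one-way starts and 44.2% in flanks. The part of this in the shares of the cores was not tested. The direction depended on the windows: with starts no more than 100 bp away GCGTG was 2.64 points more frequent, and in 200 bp windows GCGTG was 1.84 and ACGTG 2.28 points more frequent. CACGTG was in 6 windows (1.28%, 0.590 to 2.77%) against 1.05%. The strongest region with ACGTG at its summit outside the arm whose sequence is not shown was at moody, a receptor gene of the blood-brain barrier, and is shown with the core in capitals.
moody (chrX:2050221-2050320, minus strand): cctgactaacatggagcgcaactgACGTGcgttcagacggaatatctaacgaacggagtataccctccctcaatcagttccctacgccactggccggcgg
Its GC content was 56%, among regions whose mean was 33.3%. Within the start windows the cores were more frequent than at other one-way starts: ACGTG at 16.7% (13.6 to 20.4%) against 13.5% (12.7 to 14.2%), a difference of 3.25 ± 1.11 points, and GCGTG at 22.1% (18.5 to 26.0%) against 15.5% (14.8 to 16.3%), a difference of 6.79 ± 1.17 points (exact p = 0.25 for both). The start windows with a core region were also higher in GC, and its part in these differences was not tested.

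Elements at the start varied with signal. With the regions ranked in groups of 117, 116, 117 and 117 by mean percentile, Motif 1 was present at 0.855% of starts in the strongest group and at 6.90, 10.3 and 5.98% in the groups after it. Motif 7 was at 1.71, 3.45, 5.13 and 11.1% from the strongest group to the weakest, and TATCGA at 14.5, 12.9, 18.8 and 23.9%. CACTG varied less, between 44.4 and 50.4%. The shares of Motif 7 and of the DRE core were thus highest among the weakest regions, and when only peaks above their list's median signal entered, Motif 7 at the start was 0.51 points below other one-way starts. Signal chose the regions in part, so these shares are a description.

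The genes were counted by group. A gene with a one-way start was counted when it held a core region of this set. The start nearest to the region did not itself have to be one-way. Of 9677 protein-coding genes with a one-way start, 445 (4.60%) held such a region. Cytosolic ribosomal protein genes did so in 15 of 42 cases (35.7%), against 4.60% of all. Without replicate 2, and for regions in all 3 lists, it was 21.4%, and for peaks above their list's median signal 11.9%. In addition, 50 of the 92 ribosomal protein genes have no one-way start and could not be counted. The replicates' own lists gave 31.0, 38.1 and 28.6%, against 4.68, 6.34 and 4.19% of all genes. The groups were written with earlier results on these lists known, in which ribosomal protein genes already stood out, so the share is not independent support.

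Ribosomal protein regions lay near the start. Their summits lay from -89 to -5 bp with a median of -29 bp, against -112 bp for all 467, and their summit windows had 47.2% GC against 33.3%. The median of their mean percentiles was 46.6, against 55.9 for all. The 42 regions of any gene between -50 and 0 bp had 43.4% GC and a median percentile of 42.0, close to these values. They include ribosomal protein regions, so the compared sets overlap. RpL23A, for a protein of the large subunit, was strongest, at 79.8, 85.2 and 87.3 in replicates 1, 2 and 3 (3L, 1668676 to 1668826, summit at -89 bp). RpL30 followed at 65.6, 74.9 and 68.5 (2L, 19009137 to 19009522, at -16 bp), and RpS4, for a protein of the small subunit, at 66.6, 69.5 and 63.7 (3L, 13041520 to 13041891, at -61 bp). Of the 15, 9 were in all 3 lists. No list over so few regions was tested.

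Glycolysis genes lay at the other end of the window. Of 9 with a one-way start, 4 held a core region (44.4%, against 4.60% of all), each in all 3 lists. Without replicate 3 the share was 22.2%, although each of the 4 also had a summit in replicates 1 and 2. Position is then the median over those 2 lists, and Eno and Ldh, at -198 and -190 bp, lay near the window's edge. What lowered the share was not tested. With starts no more than 100 bp away it was 0, since all 4 lay farther upstream. Their summits lay from -198 to -147 bp with 23.5% GC, and the median of their mean percentiles was 91.5, against 55.9 for all 467. Gapdh2, for glyceraldehyde-3-phosphate dehydrogenase, stood at 97.3, 99.3 and 94.9 with its summit at -164 bp. Eno, for enolase, stood at 95.4, 94.5 and 93.0 at -198 bp, and Ldh, for lactate dehydrogenase, at 85.9, 90.7 and 89.2 at -190 bp. Hex-A, for hexokinase, stood at 90.6, 84.5 and 81.3 at -147 bp. The start window of Gapdh2 held ACGTG, and the 4 windows held none of Motif 1, Motif 7, the DRE core, the TATA box or CACTG.

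Genes for insulator and chromatin architecture proteins held a core region in 4 of 9 cases (44.4%, against 4.60% of all), and with starts no more than 100 bp away in 11.1%. Their summits lay mostly downstream of the start, in contrast to the median of -112 bp over all regions. Trl, which encodes the GAGA factor, had its summit at 148 bp and percentiles of 80.3, 85.4 and 76.1. CTCF had its summit at 142 bp and percentiles of 24.3, 17.8 and 34.5, and pita at 127 bp and 42.1, 53.9 and 38.6. BEAF-32, whose product binds the DRE, had its summit at -73 bp in replicates 2 and 3, at 80.2 and 51.1. The group has 4 regions, so the place of the summits is a description.

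Translation factor genes held a core region in 5 of 34 cases (14.7%, against 4.60% of all). After eIF6 came eEF1gamma, at 87.7, 88.9 and 88.1 (3R, 29220028 to 29220225, summit at -39 bp), and eEF1alpha1, for the main elongation factor, at 54.2, 76.0 and 30.6 (at -100 bp). Genes of GPI anchor synthesis and glycosylation held 2 of 12, with Alg3, a mannosyltransferase gene, at 93.6, 96.3 and 95.03 and PIG-K, for a subunit of GPI transamidase, at 12.7, 24.1 and 38.2. These 2 differed widely although both were in every list. Genes for TFIID and RNA polymerases held 2 of 22 (9.09%, Taf4 and Polr2F), Mediator 1 of 10 (MED4) and autophagy 1 of 6 (Atg8a). These counts are too few to set against the 4.60% of all genes. Autophagy was at 0 for regions in all 3 lists, without replicate 1, without replicate 2 and for peaks above their list's median signal. Polycomb and trithorax genes held 1 of 12 with a one-way start (ph-p, for Polyhomeotic, at 17 bp), beside a region at Su(z)12 whose nearest start faces another.

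Several groups lay near or below the background of 4.60%. The V-ATPase had 1 of 20 (Vha16-1), vesicle traffic 2 of 46 (deltaCOP and Rab11), the respiratory chain 1 of 47 (ND-B17) and cytochrome P450, Gst and Ugt genes 2 of 133 (GstE13 and GstE12). Among 28 segmentation and Hox genes only bcd, for the anterior determinant Bicoid, held one, at 65.4, 69.7 and 60.6 with its summit at -150 bp. Of 10 bHLH-PAS genes, Tango's own family, 1 (10%) held one, too few to set against the background: sima, for the fly HIF-alpha, in replicates 1 and 2, at 17.1 and 26.6 (3R, 30057969 to 30058354, at -149 bp). None was found in 155 odorant, gustatory and ionotropic receptor genes or 110 cuticle protein genes, in the core regions or in any replicate's own list. None was found either among 28 histone, 26 proteasome, 16 mitochondrial ribosomal protein, 11 tRNA synthetase, 6 spliceosome and 5 nuclear pore genes and the 1 CCT chaperonin gene, although 1 histone, 1 proteasome and 1 tRNA synthetase gene were marked in a single replicate's own list. Each group from histone to CCT chaperonin genes is too small for 0 to be set against the 4.60% of all genes. The same holds for the counts of 1 in the V-ATPase and in segmentation and Hox genes. Of the mitochondrial ribosomal protein genes 59 of 75, and of the tRNA synthetase genes 22 of 33, have no one-way start. Most histone, spliceosome and nuclear pore genes, and 22 proteasome genes, have none either and could not be counted.

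**Figure D5:**
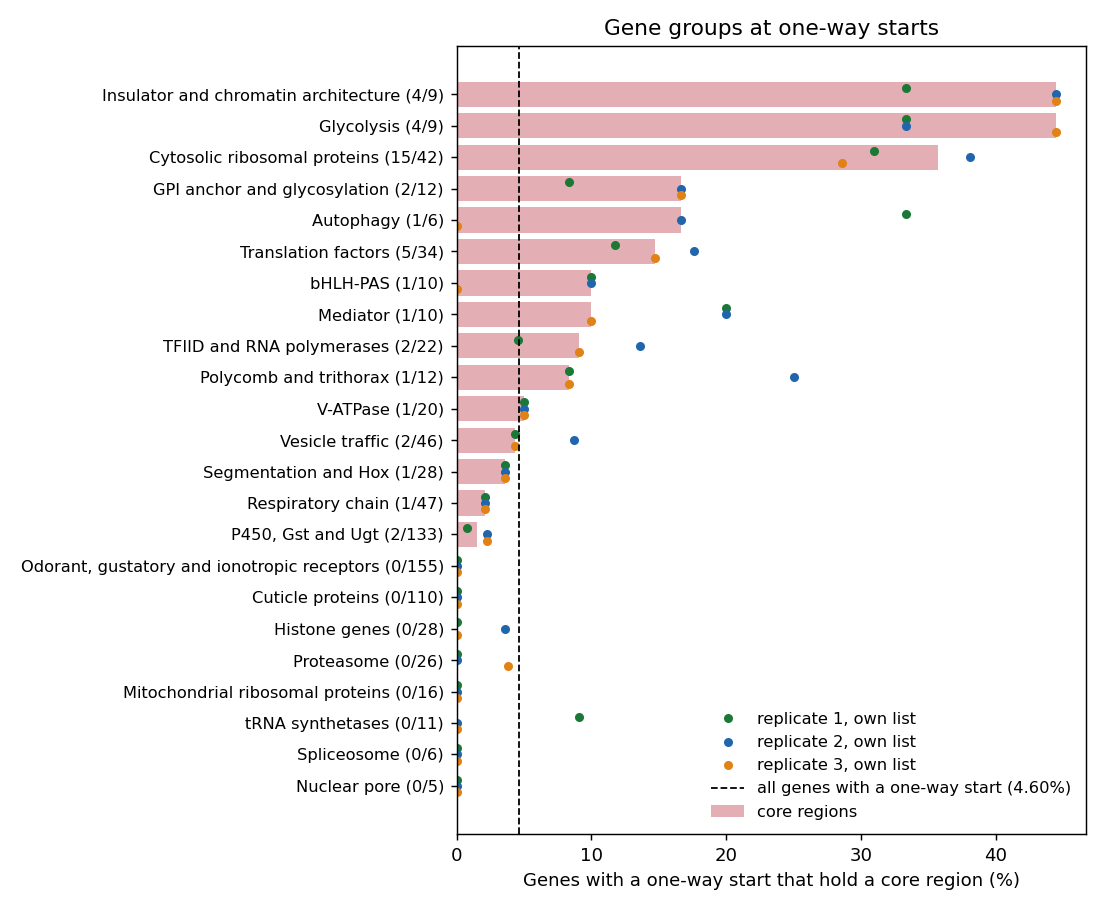
Share of genes with a one-way start that hold a core region, by gene group with at least 5 such genes; bars are core regions, points are the 3 replicates' own lists, the numbers in brackets are genes with a core region over genes with a one-way start, and the dashed line is the share over all 9677 genes (4.60%). Glycolysis, insulator and ribosomal protein genes have bars from 35.7 to 44.4%, and receptor and cuticle genes are at 0 in every list.

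A few genes held 2 core regions at separate one-way starts. There were 6, singled out after their values were seen. They were gro, for the corepressor Groucho, at 95.02, 97.0 and 92.9 for one region and 43.7, 57.8 and 31.1 for the other, and Ptpmeg2, for a tyrosine phosphatase, with mean percentiles of 95.5 and 91.3. The others were brwl (97.9 and 86.2), drn (62.8 and 59.8), gus (46.9 and 38.8) and larp (45.9 and 41.2). In gro the stronger region was the one farther downstream in the gene, and its percentiles did not overlap those of the other.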

How the data were processed

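Anti-GFP ChIP-seq of 3 biological replicates of tgo-GFP embryos was used as deposited peak lists on dm6. Per the deposited readme, each list derives from a replicate's filtered alignments and a control. For the thresholded lists the readme names a further input but not what it is. No source used here names the aligner or the peak caller. The deposited signal value has no stated unit and was used as a percentile within its list. The deposited score is the authors' scaled IDR (irreproducible discovery rate), which the deposited ranked lists also give as −log10. Thresholded lists end at a score of 830.

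Start sites were those of protein-coding genes in Ensembl release 115, and sequence came from the matching NCBI assembly. Computation used Python 3.11.15, pandas 2.3.3, NumPy 2.4.6 and SciPy 1.17.1, and was tested on simulated data. Left-out replicates, GC and 14 motifs were compared over the 3 replicates by two-sided exact sign-flip tests, with no adjustment since none could pass. Intervals are 95% Wilson intervals. Only the main arms entered, which left out 12, 0 and 1 thresholded peaks. Depth is unknown. Named genes were the 12 strongest regions, up to 3 per gene group, the strongest region per motif and those nearest the window's edges. For glycolysis genes and for insulator and chromatin architecture genes, all 4 with a core region were named. The regions, gene groups, motifs and tests were chosen with earlier results of these data known; genes of other families with similar symbols were removed from 5 groups after seeing the data. The start window from -100 to +50 bp, its widening and the limit to first starts were added after seeing the data.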

Additional observations from a re-analysis of the deposited data

Results flagged for a closer look

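Peaks past the authors' score of 830 in the ranked lists were not all among the thresholded peaks analysed here. They numbered 77, 104 and 66 in replicates 1, 2 and 3 and formed 68 regions in at least 2 replicates, of which 9 met the rule for one-way starts. The 9 were singled out because they pass the authors' score outside the thresholded lists from which the regions were chosen. Arm 3R held 45 of the 68 regions and 8 of the 9. The 9 were at isoQC, Nuak, InR (the insulin receptor gene), kibra, Gnpnat, EMC2B, TfIIA-S (a general transcription factor gene), Dph4 and CG42788. Their summits lay from -164 bp (Gnpnat) to 58 bp (CG42788), and isoQC, Nuak, Gnpnat and EMC2B were present in 3 replicates. Why they are absent from the thresholded lists is not stated in the sources used here. The deposited readme names a further input to the thresholded lists without saying what it is, and its part was not tested.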

How the results depend on the processing

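Across 16 alternatives, 146 of 164 recomputed values of the 12 main results were counted as unchanged. A difference larger than its spread between replicates had only to keep its sign, whatever its size. Smaller differences and shares had to stay within their spread, and the number of regions within a fixed factor. Sizes therefore moved more than this count shows: TATAAA in the start window ran from -11.9 to -3.81 points. In all 3 lists, 14.98% of core regions met the rule, and leaving out each replicate gave 13.6 to 15.02%. Peaks above the median signal gave 269 regions, 14.8%, with a median of -127 bp. A window of 100 bp to either side gave 180 regions, 5.20%, 75% of them upstream, with a median of -53.5 bp. Limits of 500 and 2000 bp for facing-away starts gave 16.6 and 11.0%, and keeping only regions at the first start of their gene gave 10.02%. In a separate setting, the first start of each gene replaced all starts before regions were chosen, and this gave 69.5% upstream and a median of -90.0 bp.

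Differences from other one-way starts or other core regions, in percentage points, that exceeded their spread between replicates turned sign as follows. GC in the start window was -0.30 with the narrow window, -0.081 with first starts per gene and -0.98 from -200 to +200 bp. Motif 1 at the summit was -0.081 in all 3 lists, -0.31 for the stronger peaks, -0.20 with first starts per gene, -0.37 for regions at first starts, and -0.094 to 0.44 without each replicate. TATAAA at the summit was -11.9 with the narrow window and -3.19 in 200 bp windows. GAGAG in the start window was -4.91 and the ranked percentile left out -0.66 with the narrow window. For the stronger peaks CACTG at the summit was -0.41, TATCGATA, TATCGA and Motif 7 in the start window -1.19, -2.98 and -0.51. Summit differences within their spread also turned sign and moved beyond it: GCGTG to 2.64, TCAGT to -6.19 and CAGCTG to 2.89 with the narrow window, TATCGA to -0.95 and TCAGT to -1.48 with first starts per gene, GCGTG to 1.84, ACGTG to 2.28 and CAGCTG to 3.12 in 200 bp windows, and CAGCTG to 0.61 with a limit of 500 bp. Among gene groups, cytosolic ribosomal protein genes ranged from 21.4 to 31.0% and glycolysis genes from 22.2 to 44.4% without each replicate. The causes were not tested. No paired analysis was possible because the series holds 1 group. Unknown depth, 3 replicates and an unused control limit every value.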
